A study of Homo sapiens with 9 samples.

Results

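The genes described here import cystine and make, recycle and spend glutathione, the tripeptide that serves as the main soluble thiol of the cell. Of the 10 genes chosen by symbol (SLC7A11, GCLC, GCLM, GSS, GSR, GPX1, GPX2, GGT1, MGST1 and GSTP1), 8 had a probe set under their symbol in the platform annotation, with 12 probe sets among the 22277 on the array. GGT1 and MGST1 are not analysed here. RNA came from LNCaP cells, an androgen-responsive human prostate cancer line from a lymph node metastasis. All 9 cultures were first starved of androgen for 2 days, in RPMI with 10% serum stripped of steroid hormones by charcoal. The gedunin cultures then received 20 µM gedunin, a limonoid from plants of the mahogany family that is known to impair the chaperone HSP90, together with 1 nM R1881, a synthetic androgen (3 arrays). Another 3 received 1 nM R1881 with DMSO, and 3 received vehicle (ethanol and DMSO). The labels give 24 h for every group, but the titles of the R1881 arrays give 6 h, so the time of that group is not settled. Time and gedunin cannot be told apart against it. Nor can time and R1881 be told apart where that group is compared with vehicle. No group received gedunin alone.

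Cystine enters through a heterodimeric antiporter and is reduced to cysteine, the scarce building block of glutathione. Glutamate-cysteine ligase joins cysteine to glutamate in the rate-limiting step, and glutathione synthetase adds glycine. Glutathione peroxidases oxidise glutathione while removing peroxides, glutathione reductase restores it with NADPH, and glutathione transferases couple it to electrophiles. The transcription factor NRF2, which reacts to electrophilic stress, is known to induce several of these genes through antioxidant response elements, and ATF4 is known to induce the transporter on amino acid shortage.

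Genes known to be induced by androgen went against 2 of the labels. FKBP5 averaged 122 ± 16.0 on the gedunin arrays, 45.1 ± 3.15 under the label R1881 and 1815 ± 147 under the label vehicle (intensity, SD, n = 3 each). KLK3, which encodes prostate-specific antigen, averaged 7215 ± 384, 1341 ± 104 and 11839 ± 513 in the same order. Groups are therefore called by their labels ("under the label R1881" means on the arrays so labelled), and every direction between the arrays labelled R1881 and vehicle rests on labels that these genes contradict. Array medians lay between 52.4 and 54.5. For ACTB, the control for RNA integrity, the 3' signal exceeded the 5' signal by 0.13 on the gedunin arrays, 0.18 under the label R1881 and 0.14 under the label vehicle (log2). All 6 measured luminal prostate markers lay above the lowest array median, as did 0 of 3 basal epithelial, 3 of 5 fibroblast and 1 of 5 leukocyte markers. Limma called 0 markers of these last 3 lists in any of the 3 comparisons; at an unadjusted p under 0.05, 1 basal marker passed in each comparison that uses the arrays labelled R1881, and 1 leukocyte marker in the one with gedunin. All 6 luminal markers were called in each comparison. Their mean log2 level per array was 10.5 to 10.7 with gedunin. It was 9.01 to 9.13 under the label R1881 and 11.7 to 11.8 under the label vehicle. HOXB13 ran against this order, at log2 means of 9.08, 10.2 and 9.57, while the other measured luminal markers followed it. The part of these differences in the results below was not tested. RMA makes the arrays' distributions alike, so these values do not show whether cells held more or less RNA in all, and fewer cells carrying a transcript cannot be told apart from less of it per cell.

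On the gedunin arrays SLC7A11, the light chain of the cystine-glutamate antiporter that selects its substrate, stood 11.7-fold above the arrays labelled R1881 and 7.17-fold above those labelled vehicle. GCLM and GCLC, the modifier and catalytic subunits of glutamate-cysteine ligase, were higher there too, GCLM by 8.57-fold and 6.73-fold and GCLC by 2.08-fold and 3.28-fold. GSR, glutathione reductase, was higher than under the label R1881, by 1.88-fold, but did not pass the test against the arrays labelled vehicle. GSS, glutathione synthetase, was slightly lower than under the label vehicle. GPX1, GPX2 and GSTP1 passed in none of the 3 comparisons.

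Against the arrays labelled R1881, 7 of the 12 probe sets were called higher and 0 lower in limma with Benjamini-Hochberg adjustment, where 12.4% of all 22215 probe sets were called higher and 11.9% lower. At an unadjusted p under 0.05, 8 were higher and 1 lower. Of the 7, 6 changed at least 2-fold, as did 1.45% of all probe sets in the same direction. Against the arrays labelled vehicle, 6 were called higher and 2 lower (12.9% and 10.6% of all probe sets), and all 6 changed at least 2-fold (0.932%). Between the arrays labelled R1881 and vehicle, 2 were called higher and 5 lower (14.8% and 12.2%). The median log2 fold change of the 12 probe sets was 0.98, 0.96 and -0.17 in these comparisons, and that of all probe sets was -0.01, -0.01 and 0.00. SLC7A11, GCLC and GSS have several probe sets each and so weigh more in these medians. By the brightest probe set of each of the 8 genes, the medians were 0.59, 0.16 and -0.14. In that order 4, 3 and 1 genes were higher and 0, 1 and 3 lower. Of all 11963 genes, 13.7%, 14.8% and 16.3% were higher and 13.0%, 11.4% and 13.2% lower. Both gedunin comparisons share the gedunin arrays and are not independent of each other.

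**Figure D1:**
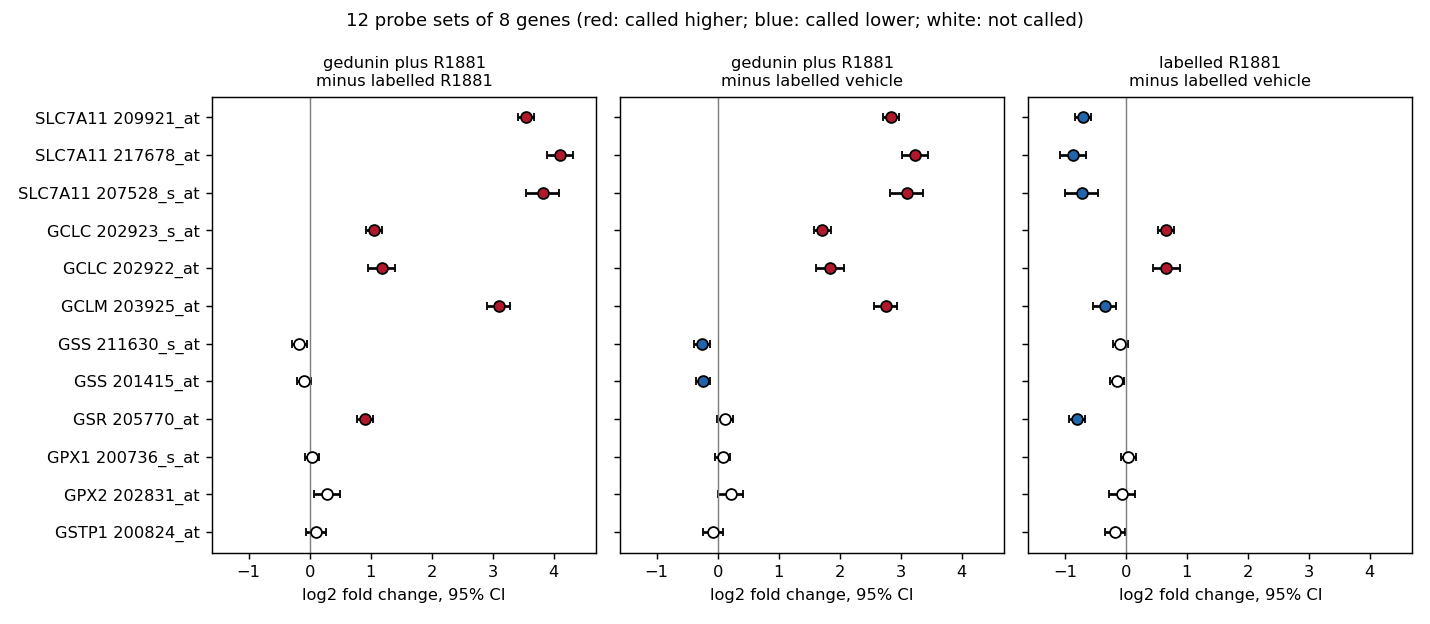
Log2 fold change with its 95% confidence interval from limma (horizontal axis) for each of the 12 probe sets of the 8 measured genes (rows) in the 3 comparisons (panels). Filled points passed the adjusted threshold, red for higher and blue for lower. SLC7A11, GCLC and GCLM lie right of 0 in both gedunin panels, GSR is called higher in the left panel and lower in the right one, and GPX1, GPX2 and GSTP1 are white throughout.

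SLC7A11 was read by 3 probe sets. The brightest, 209921_at, measured 4225, 4373 and 3961 on the gedunin arrays, 347, 364 and 363 under the label R1881, and 568, 564 and 620.0 under the label vehicle. The groups did not overlap in any pair, and the arrays labelled vehicle lay between the other groups. Its log2 fold change was 3.55 ± 0.06 (SE, limma adjusted p = 2.74e-12) against the label R1881 and 2.84 ± 0.06 (adjusted p = 1.77e-11) against the label vehicle. The difference between these folds is the comparison of the labels R1881 and vehicle, in which SLC7A11 was 1.63-fold lower under the label R1881 (-0.70 ± 0.06, adjusted p = 1.64e-06).

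The other SLC7A11 probe sets ran the same way. Probe set 217678_at measured 3117, 3057 and 3096 on the gedunin arrays, 175, 154 and 216 under the label R1881, and 313, 328 and 346 under the label vehicle. It gave the largest folds of the gene, 17.2 over the label R1881 and 9.40 over the label vehicle. In the first of these it ranked 2 among the 22215 probe sets, behind that of HMOX1, the haem oxygenase gene. Probe set 207528_s_at, the dimmest, measured 1437, 1378 and 1152 on the gedunin arrays, 86.8, 98.6 and 94.2 under the label R1881, and 136, 193 and 138 under the label vehicle. Its folds were 14.1 and 8.57. All 3 probe sets were lower under the label R1881 than under the label vehicle, by 1.63-fold, 1.83-fold and 1.65-fold.

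**Figure D2:**
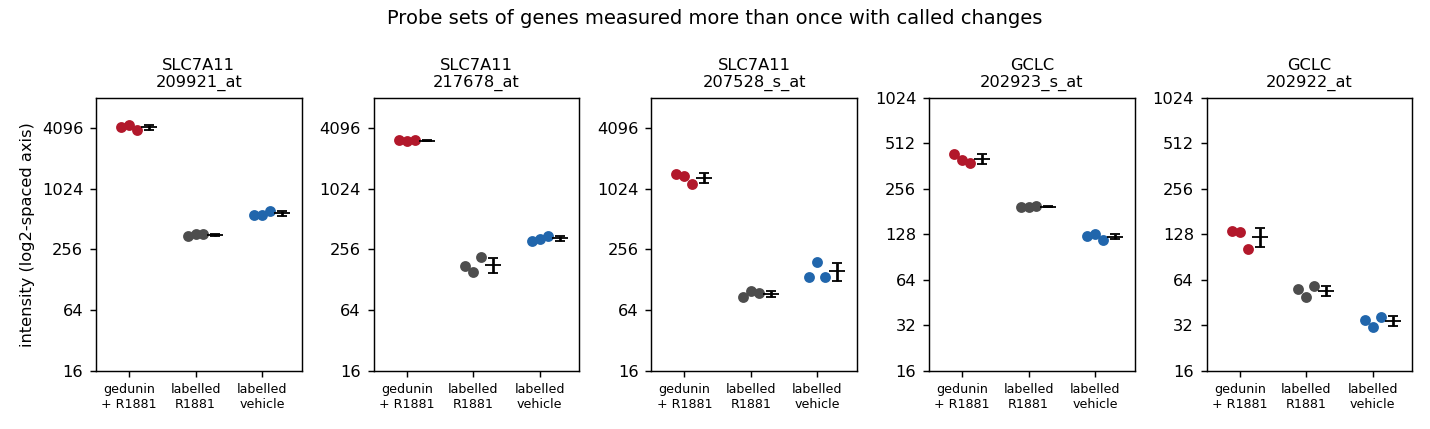
Deposited intensity (vertical axis, log2-spaced) on each of the 9 arrays (points) for the 3 probe sets of SLC7A11 and the 2 of GCLC; black marks show mean and SD of 3 arrays. Every SLC7A11 probe set has the arrays labelled R1881 lowest, and both GCLC probe sets have the arrays labelled vehicle lowest.

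SLC3A2, the heavy chain that carries SLC7A11 to the cell surface and also partners other amino acid transporters, measured 1516, 1500.4 and 1389 on the gedunin arrays, 324, 347 and 344 under the label R1881, and 385, 373 and 379 under the label vehicle. It was 4.34-fold above the label R1881 and 3.87-fold above the label vehicle (limma adjusted p = 7.12e-11 and 1.39e-10). Between the arrays labelled R1881 and vehicle it differed by -0.16 ± 0.06 on the log2 scale (adjusted p = 0.0492), close to the threshold. Both chains of the antiporter thus had their highest values on the gedunin arrays and their lowest under the label R1881.

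The 2 subunits of glutamate-cysteine ligase were both higher on the gedunin arrays, but the other groups were in opposite order. GCLM, whose product lowers the Km of the enzyme for glutamate and relieves feedback by glutathione, measured 1873, 1792 and 1651 on the gedunin arrays, 213, 198 and 209.8 under the label R1881, and 273, 291 and 229 under the label vehicle. The log2 fold change was 3.10 ± 0.09 (SE, limma adjusted p = 7.4e-11) against the label R1881 and 2.75 ± 0.09 (adjusted p = 2.37e-10) against the label vehicle. On the arrays labelled R1881 it was 1.27-fold lower than under the label vehicle (adjusted p = 0.0079).

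GCLC, whose product holds the active site, measured 438, 398 and 381 on the gedunin arrays, 194, 194 and 197 under the label R1881, and 125, 128 and 118 under the label vehicle with probe set 202923_s_at. The groups did not overlap, and the arrays labelled R1881 lay in the middle; 2 of them had equal deposited values, so the SD there is narrow. The log2 fold change was 1.06 ± 0.06 against the label R1881 (limma adjusted p = 6.03e-08) and 1.71 ± 0.06 against the label vehicle (adjusted p = 9.37e-10). GCLC was 1.58-fold higher under the label R1881 than under the label vehicle (adjusted p = 3.54e-06). The dimmer probe set, 202922_at, gave 1.18, 1.84 and 0.66 on the log2 scale for the same comparisons, all called. Its mean under the label vehicle, 34.1, lay under the lowest array median, so the last 2 of these values are approximate; with 32 added to each intensity before log2, the value against the label vehicle was 1.23, still called.

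Between the labels R1881 and vehicle, the 95% interval of the log2 fold change was -0.53 to -0.16 for GCLM and 0.52 to 0.79 for the brighter GCLC probe set. The subunits therefore moved in opposite directions in that comparison, while both were higher on the gedunin arrays than in either other group. Against the label R1881 the interval was 2.91 to 3.28 for GCLM and 0.92 to 1.19 for GCLC.

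**Figure D3:**
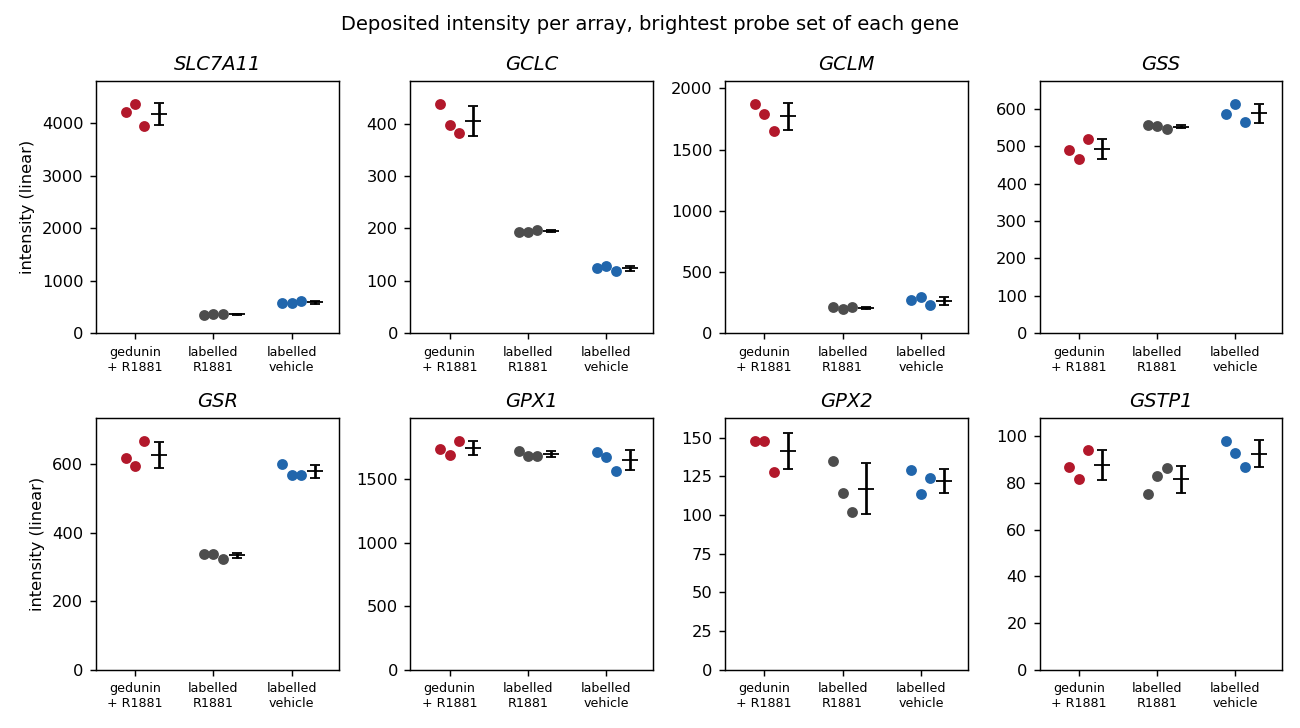
Deposited intensity (vertical axis, linear, from 0) on each of the 9 arrays (points) for the brightest probe set of each of the 8 measured genes; black marks show mean and SD of 3 arrays. SLC7A11, GCLC and GCLM are highest on the gedunin arrays, GSR is lowest under the label R1881, and the groups of GPX1 and GPX2 overlap in every pair.

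The promoters of both ligase subunits are shown because the genes rose together on the gedunin arrays and parted between the other groups. RefSeq promoter windows (GRCh38.p14) matched 5 of the 8 measured genes. GSS, SLC7A11 and GSR had no entry among the windows used. The 250 bases before each annotated start were searched on both strands for TGACNNNGC, the core of the antioxidant response element, and for TGATGNAA, a core of the amino acid response element bound by ATF4. The first core is held by 10.9% of all 35116 windows of this length and the second by 3.14%. Capitals mark matches to the first core, and the second matched none of the 5. The GCLM window (chr1:93909431-93909680, minus strand) holds 1 match, on the opposite strand, that starts 34 bases before the gene. The GCLC window (chr6:53545102-53545351, minus strand) holds 0. A match describes letters only, and a window without one says nothing of sites elsewhere.
GCLM: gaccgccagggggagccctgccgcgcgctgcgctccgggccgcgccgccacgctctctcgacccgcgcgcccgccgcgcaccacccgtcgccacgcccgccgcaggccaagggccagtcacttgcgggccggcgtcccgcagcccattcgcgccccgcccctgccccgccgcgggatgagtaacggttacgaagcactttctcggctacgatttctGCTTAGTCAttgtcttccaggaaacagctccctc
GCLC: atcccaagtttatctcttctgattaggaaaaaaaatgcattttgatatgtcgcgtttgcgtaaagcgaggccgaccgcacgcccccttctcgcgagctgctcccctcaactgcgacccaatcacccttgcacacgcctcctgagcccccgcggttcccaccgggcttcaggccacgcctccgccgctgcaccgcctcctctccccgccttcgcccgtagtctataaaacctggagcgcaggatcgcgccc

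GSS, which catalyses the second step of synthesis, was lowest on the gedunin arrays. Probe set 211630_s_at measured 489.7, 467 and 521 on the gedunin arrays, 557, 555 and 548 under the label R1881, and 588, 614 and 564 under the label vehicle. Probe set 201415_at measured 304, 292 and 299 on the gedunin arrays, 324, 311 and 318 under the label R1881, and 365, 342 and 348 under the label vehicle. In both, each gedunin array lay below every array of the other groups. Such separation is common here. Of all 22215 probe sets, 4002 had every gedunin array below every array labelled R1881, and 3940 had them below every array labelled vehicle. Against the label vehicle both were called, 1.20-fold and 1.18-fold lower on the gedunin arrays (limma adjusted p = 0.00569 and 0.00495). Against the label R1881 they were at -0.17 ± 0.06 and -0.09 ± 0.05 on the log2 scale and did not pass (adjusted p = 0.0548 and 0.287). The first of these lies next to the threshold and passed under several other settings, among them when gedunin replicate 3 was left out (-0.21, adjusted p = 0.0332). It ranged from -0.21 to -0.13 when 1 array was left out in turn.

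GSR, the reductase that returns oxidised glutathione to its thiol form, measured 617, 596 and 669 on the gedunin arrays, 339, 338 and 324 under the label R1881, and 599.7, 569 and 569 under the label vehicle. Here the arrays labelled R1881 stood apart and the other groups overlapped. The log2 fold change was 0.91 ± 0.06 on the gedunin arrays against the label R1881 (SE, limma adjusted p = 1.54e-07), and -0.80 ± 0.06 between the labels R1881 and vehicle (adjusted p = 3.86e-07). Against the label vehicle the gedunin arrays differed by 0.11 ± 0.06, with a 95% interval of -0.01 to 0.24 (adjusted p = 0.218). If the labels R1881 and vehicle were exchanged, GSR would not have passed the comparison that shows gedunin beside androgen, whereas SLC7A11, GCLC and GCLM would have.

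GPX1, the abundant cytosolic glutathione peroxidase, measured 1741, 1696 and 1806 on the gedunin arrays, 1728, 1689 and 1688 under the label R1881, and 1717, 1674 and 1571 under the label vehicle. The 95% interval of its log2 fold change on the gedunin arrays was -0.08 to 0.16 against the label R1881 and -0.04 to 0.20 against the label vehicle. GPX2, the gastrointestinal form and a known NRF2 target, measured 148, 148 and 128 on the gedunin arrays, 135, 114 and 102 under the label R1881, and 129, 113 and 124 under the label vehicle. Its groups overlapped in every pair. The difference against the label R1881 was 0.28 ± 0.10 on the log2 scale (limma adjusted p = 0.0564), just outside the threshold. It passed without gedunin replicate 3 (0.35, adjusted p = 0.0349) and without R1881 replicate 1 (0.39, adjusted p = 0.00748). It ranged from 0.19 to 0.39 when 1 array was left out in turn. Against the label vehicle it was 0.21 ± 0.10 (adjusted p = 0.159).

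GSTP1, the pi-class glutathione transferase whose promoter is known to be methylated in most prostate cancers and in LNCaP, measured 86.7, 81.9 and 94.3 on the gedunin arrays, 75.3, 82.9 and 86.5 under the label R1881, and 98.1, 92.8 and 86.7 under the label vehicle. The gedunin values overlapped those of both other groups. Its signal was dim: DCN, of the fibroblast list, averaged 82.5, 78.1 and 75.8 in the same order. Of that list COL1A1 was brighter, and COL1A2, COL3A1 and LUM were dimmer than GSTP1. Whether GSTP1 was read above background was not tested. The 95% interval of the log2 fold change was -0.06 to 0.27 against the label R1881 and -0.24 to 0.08 against the label vehicle. Between the labels R1881 and vehicle the value was -0.18 ± 0.07 (limma adjusted p = 0.0944).

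The promoters of GPX2 and GSTP1 are shown because they hold the same core as GCLM, although neither gene passed the test. In GPX2 (chr14:64942746-64942995, minus strand) 1 match lies on the opposite strand and starts 122 bases before the gene. In GSTP1 (chr11:67583562-67583811, plus strand) 1 match lies on the gene's own strand and starts 66 bases before it. The GSTP1 window has 28 CG dinucleotides, the GCLM window 36 and the GPX2 window 3. GPX1 had 0 matches to either core. Capitals mark TGACNNNGC on either strand.
GPX2: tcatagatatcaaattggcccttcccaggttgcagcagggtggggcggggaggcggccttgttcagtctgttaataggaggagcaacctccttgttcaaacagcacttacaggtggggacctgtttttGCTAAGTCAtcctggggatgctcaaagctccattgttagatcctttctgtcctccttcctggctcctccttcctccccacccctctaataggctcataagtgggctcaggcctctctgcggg
GSTP1: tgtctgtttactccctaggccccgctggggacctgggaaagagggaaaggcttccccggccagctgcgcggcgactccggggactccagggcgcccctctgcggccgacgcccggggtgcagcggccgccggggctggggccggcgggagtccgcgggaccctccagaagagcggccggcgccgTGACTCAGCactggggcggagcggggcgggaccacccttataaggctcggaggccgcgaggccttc

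Other genes of cystine and glutathione metabolism were taken from a list of 65, of which 53 were measured with 73 probe sets. Against the label R1881, 20 probe sets were called higher on the gedunin arrays and 3 lower; against the label vehicle 12 were higher and 10 lower. Between the labels R1881 and vehicle 10 were higher and 18 lower. As shares of the 73 these were 27.4% and 4.11%, 16.4% and 13.7%, and 13.7% and 24.7%, beside 12.4% and 11.9%, 12.9% and 10.6%, and 14.8% and 12.2% of all probe sets, so the counts against the label vehicle lay near those of all probe sets. Their median log2 fold changes were 0.01, -0.01 and -0.04, against -0.01, -0.01 and 0.00 for all probe sets. By the brightest probe set of each gene, 15, 8 and 7 of the 53 genes were higher and 1, 8 and 14 lower in the same order. Of all 11963 genes taken in this way, 13.7%, 14.8% and 16.3% were higher and 13.0%, 11.4% and 13.2% lower.

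Of 20 measured glutathione transferases and related membrane enzymes, 2 were called on the gedunin arrays against the label R1881, both higher, and 3 were higher and 4 lower than under the label vehicle. The counts of higher genes lay below and near the shares of all genes, 13.7% and 14.8%, and 11.4% of all genes were lower than under the label vehicle. GSTA4, which conjugates lipid aldehydes, measured 841, 819 and 884 on the gedunin arrays, 566, 563 and 563 under the label R1881, and 336, 360.1 and 349.8 under the label vehicle. It was 1.50-fold and 2.43-fold higher on the gedunin arrays (limma adjusted p = 3.79e-06 and 3.23e-09). Its groups did not overlap and stood in the order of GCLC, with the label R1881 1.62-fold above the label vehicle. GSTO1, an omega-class enzyme, was 1.59-fold above the label vehicle (adjusted p = 6.94e-07) and 0.47 above the label R1881 on the log2 scale (adjusted p = 1.5e-05). Probe sets of the GSTM genes, near-identical paralogs, cannot fully separate them.

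Among peroxidases, GPX4, which removes phospholipid hydroperoxides, averaged 1631 ± 50.1 on the gedunin arrays, 1782 ± 25.4 under the label R1881 and 1549 ± 51.4 under the label vehicle (intensity, SD, n = 3 each). It did not pass in either gedunin comparison (limma adjusted p = 0.112 and 0.394) and was 1.15-fold higher for the label R1881 than for the label vehicle. PRDX6, a peroxiredoxin that is reduced by glutathione, averaged 4324 ± 45.1 on the gedunin arrays, 3578 ± 144 under the label R1881 and 6941 ± 383 under the label vehicle. It was lower on the gedunin arrays than under the label vehicle by 0.68 on the log2 scale (-0.68 ± 0.06, adjusted p = 2.05e-06). Against the label R1881 it was higher on the gedunin arrays, by 0.27 (adjusted p = 0.0035), and its other probe set was called the same way in both comparisons (-0.67 and 0.22).

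The exporters ABCC4 and ABCC1 and a glutaredoxin had the order of KLK3, with the gedunin arrays between the others. ABCC4, a pump that can carry glutathione and its conjugates, averaged 2175 ± 112 on the gedunin arrays, 624 ± 43.8 under the label R1881 and 3813 ± 266 under the label vehicle. It was 3.49-fold above the label R1881 and at -0.81 on the log2 scale against the label vehicle, both called. ABCC1, a pump of glutathione conjugates, averaged 564 ± 3.83, 242 ± 30.3 and 739 ± 39.9 in that order, with its other probe set ordered alike. GLRX2, a mitochondrial glutaredoxin, averaged 398 ± 0.162, 209 ± 17.6 and 531 ± 30.1. Both ABCC1 and GLRX2 had equal deposited values on 2 gedunin arrays, which narrows the SD. GLRX3, a monothiol glutaredoxin that binds iron-sulfur clusters, was instead 1.92-fold and 1.71-fold higher on the gedunin arrays by its brightest probe set; the others gave 0.31 and 0.12 on the log2 scale against the label R1881, and the last was not called.

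**Figure D4:**
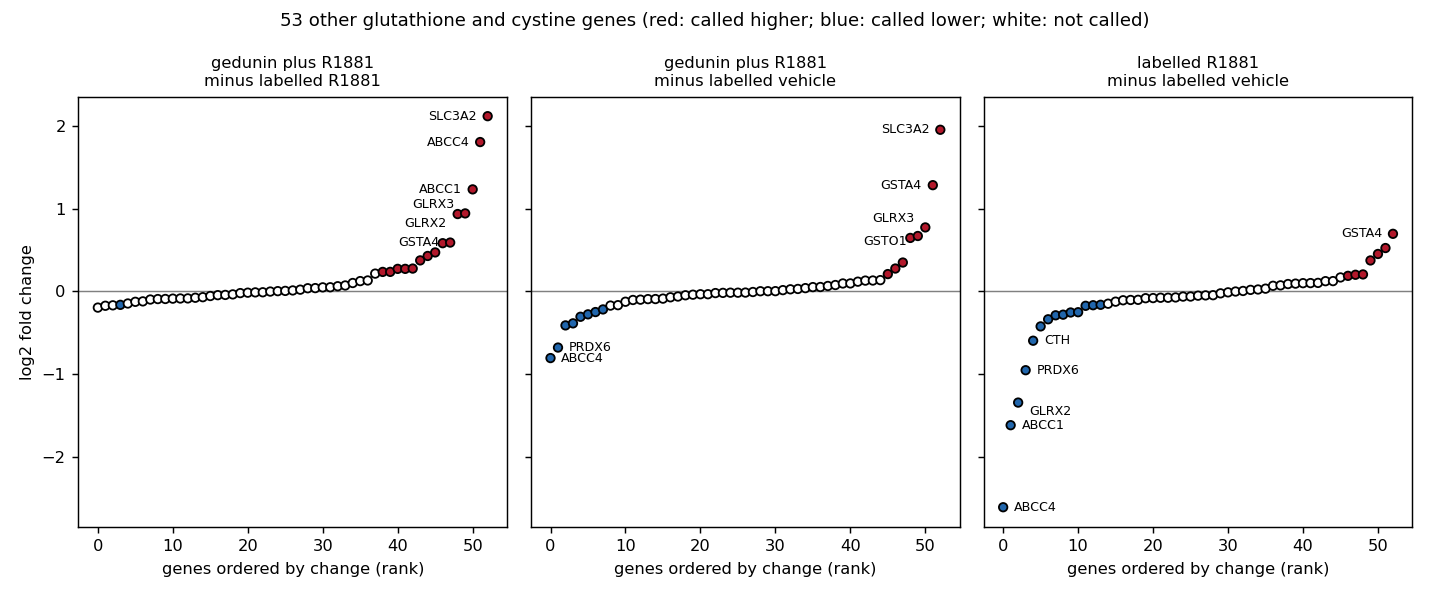
Log2 fold change (vertical axis) of the 53 other measured genes, brightest probe set each, ordered by size within each of the 3 comparisons (panels); red and blue points were called. SLC3A2 stands at 2.12 and 1.95 in the gedunin panels, and ABCC4 at 1.80 and -0.81.

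Both transsulfuration enzymes of the list, CTH and CBS, which make cysteine from homocysteine, were higher on the gedunin arrays than under the label R1881, by 0.58 and 0.27 on the log2 scale. Neither passed against the label vehicle, at -0.02 and 0.09, and both were lower for the label R1881 than for the label vehicle. All CTH values were below the lowest array median, which makes its change approximate, and its dimmer probe set did not pass against the label R1881 (0.17, limma adjusted p = 0.124). Of 8 measured genes of glutathione breakdown, 2 were called higher and 0 lower on the gedunin arrays against the label R1881. Against the label vehicle, 1 was called higher and 0 lower. Of all 11963 genes, 13.7% were higher and 13.0% lower in the first comparison, and 14.8% and 11.4% in the second. CHAC1, which cleaves glutathione, and GGCT, which acts on its gamma-glutamyl fragments, were the 2 called against the label R1881, at 0.43 and 0.27 on the log2 scale, and stood at 0.00 and 0.01 against the label vehicle. LAP3, a leucine aminopeptidase, ran the other way: it was higher on the gedunin arrays than under the label vehicle by 0.27 (adjusted p = 0.00436), stood at -0.18 ± 0.06 against the label R1881, just outside the threshold, and was higher for the label R1881 than for the label vehicle by 0.45 (adjusted p = 7.85e-05). The other 5 passed in none of the 3 comparisons. CBS, CHAC1, GGCT and LAP3 were chosen for mention after their values were seen.

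By the fixed rule for likeness, the 5 non-member genes whose brightest probe set correlated best with SLC7A11 over the 9 arrays, among 11955 genes compared, were BAG3, EMC3, GLRX3, BLVRB and ME1. Pearson's r was between 0.997 and 0.999 across these 9 points, which form 3 groups and share their treatment. GCLM reached 0.992 with SLC7A11 by the same measure, GCLC 0.833, GSR 0.728 and GSS -0.800. ME1, malic enzyme, a source of NADPH, averaged 3378 ± 138 on the gedunin arrays, 606 ± 17.4 under the label R1881 and 766 ± 8.87 under the label vehicle. BAG3, a co-chaperone of HSP70, averaged 543 ± 14.1, 193 ± 3.79 and 235 ± 3.34 in that order. The NRF2 target NQO1, a quinone reductase, was 4.05-fold above the label R1881 and 4.08-fold above the label vehicle, and did not pass between those labels (log2 fold change 0.01 ± 0.05). SLC7A11, GCLC and GCLM were called between those labels.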

How the data were processed

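Biotin-labelled cRNA from total RNA was hybridised to Affymetrix arrays, per the labels. The deposited values are linear intensities that the authors obtained with RMA, as the submitters' processing notes state without a version. This method corrects background, brings all arrays to 1 distribution by quantiles and combines probes by median polish, so array totals are made alike. The 22277 probe sets held 62 controls, which were left out, 19064 with 1 annotated symbol, 1043 with several and 2108 without any; the last 2 kinds are not named. Of the 19064, 12 had no match in the RefSeq gene table and kept their symbol.

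Log2 intensities of 22215 probe sets in 9 arrays were fitted with limma 3.58.1 in R 4.3.3 (1 coefficient per group, eBayes without trend, 6.08 prior degrees of freedom), after the code was tested on simulated data. Tests are two-sided, adjusted by Benjamini-Hochberg over all 22215 probe sets; a probe set was called at an adjusted p under 0.05. Log2 fold changes carry standard errors and intensities SDs over 3 arrays. Each title marks its array as a biological replicate. Nothing says how the cultures were separated, so p-values measure the spread between these arrays.

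The members, the list of 65 further genes and the tests were chosen with earlier results of these data known. All probe sets of the members are described; from the list the text names up to 6 called genes with the largest change per comparison, SLC3A2 and GPX4, each by its brightest probe set over the 9 arrays; CBS, CHAC1, GGCT and LAP3 were added after their values were seen. Same-numbered arrays did not deviate together in every pair (r between -0.10 and 0.14 over 9 pairs), so the numbers were not used as pairs. Alternatives covered the unit tested, variance prior, samples, scaling, dim probe sets, an offset, a replicate block and leaving out each array.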

Additional observations from a re-analysis of the deposited data

How the results depend on the processing

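Of 600 log2 fold changes of member probe sets under 17 alternatives, 583 stayed on their side of the threshold. Among called values, 0 lost their call and 0 reversed. Uncalled values among the 583 could change sign, as GPX1 did against the label R1881 (-0.06 to 0.06). The other 17 became called: GSS 201415_at between the labels R1881 and vehicle, and GSS 211630_s_at and GPX2 against the label R1881, all near the threshold. With 1 probe set per gene, counts are of genes, and the fit and its adjustment were run anew. Then 4, 6 and 4 members were called for the label R1881 against vehicle, gedunin against the label R1881 and gedunin against the label vehicle, beside 7, 7 and 8 probe sets. In all, 3624, 3277 and 3219 genes were called, beside 6007, 5406 and 5223 probe sets. This setting added calls against the label R1881. The 6 were 5 higher and 1 lower, beside 4 higher and 0 lower by the brightest probe sets in the main fit. GPX2 was the added higher call and GSS the lower one. Leaving out 1 array in turn gave 7, 7 to 9 and 8 member probe sets. With the replicate number as a block, 7, 8 and 8 member probe sets were called and no call was lost; GPX2 passed against the label R1881 (0.28, adjusted p = 0.0235). With 32 added before log2, the SLC7A11 folds against the label R1881 were as low as 3.43 on the log2 scale. The dimmer GCLC probe set was then at 0.85 against the label R1881 and at 1.23, beside 1.84, against the label vehicle. Between the labels R1881 and vehicle that probe set was as low as 0.38 among the alternatives, beside 0.66. Precision is limited by 3 arrays per group.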
